A study of Homo sapiens with 4 samples.

Results

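The cadherins and protocadherins of MDA-MB-231-LM2 cells (LM2) were compared with those of MDA-MB-231 cells. Members were taken by symbol among the protein-coding genes of the transcript table: CDH or PCDH followed by a number, the PCDHA, PCDHB and PCDHG clusters, the desmocollins (DSC1 to DSC3) and the desmogleins (DSG1 to DSG4). This gave 96 of 18985 protein-coding genes, with 194 transcripts, and each gene is given by its most counted transcript. The genes of the PCDHA cluster share exons among themselves, as do those of the PCDHG cluster, so each of these clusters was treated as 1 unit, which leaves 61 units. MDA-MB-231 is a human breast cancer cell line, given as parental in the labels, and LM2 is its subline of high lung metastatic ability. Both were cultured with fetal bovine serum, LM2 in DMEM under added CO2 and MDA-MB-231 in Leibovitz L-15 under air, so the cell line and the medium cannot be told apart. The labels list 2 samples per cell line, but the count table holds 1 column for each, which may be a single library or a pool (not given in the sources used here). Replicates thus cannot be compared, and the text gives no p-value.

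Cadherins are transmembrane proteins that hold neighbouring cells together through repeated extracellular domains that need calcium. The classical cadherins, of type I and type II, bind like cadherins on the next cell and are anchored inside the cell to p120 catenin and beta-catenin, and through alpha-catenin to actin. Desmocollins and desmogleins form desmosomes, which are tied to keratin filaments through plakoglobin, plakophilins and desmoplakin. Protocadherins lack the catenin-binding tail. The clustered protocadherins PCDHA, PCDHB and PCDHG lie side by side on chromosome 5, are best known from neurons, and are each transcribed from a promoter of their own. In breast carcinoma, loss of E-cadherin (CDH1) and gain of N-cadherin (CDH2) or cadherin 11 (CDH11) are the textbook changes of an epithelial to mesenchymal transition.

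Counts summed to 128985870 in LM2 and 130689252 in MDA-MB-231 over 65423 transcripts. Ratios are LM2 over MDA-MB-231, taken on counts per column total, with an exact (Clopper-Pearson) 95% interval that covers counting error only. Levels are given as RPKM, which scales each count by the length of its transcript and by the column total. The carcinoma label was checked against markers. KRT8 had an RPKM of 98.6 in LM2 and 140 in MDA-MB-231, and KRT18 had 134 and 112, in the same order. KRT7 was 3.15-fold lower in LM2 and KRT19 11.2-fold lower. EPCAM was low, with an RPKM of 1.60 in LM2 and 1.61 in MDA-MB-231. The mesenchymal markers went both ways. The filament gene VIM had an RPKM of 951 in LM2 and 550 in MDA-MB-231, a ratio of 1.73. CD44 had a ratio of 0.825 (0.807 to 0.844) and AXL 0.754 (0.746 to 0.763), both lower in LM2. The hormone receptors ESR1 (8 and 2 counts) and PGR (2 and 7 counts) and the leukocyte gene PTPRC (7 and 8 counts) were near 0. The endothelial marker PECAM1 was low, with 343 counts in LM2 against 48 in MDA-MB-231 (RPKM of 0.597 and 0.0825), while the endothelial cadherin CDH5 was at 0 in both, and the part of PECAM1-expressing cells in the differences was not tested.

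Most cadherins and protocadherins were weakly expressed, and those with enough counts were more often higher in LM2. Of the 61 units, 26 had a mean of at least 50 counts over both columns, and the comparison was limited to these. Among them, 2 were over 2-fold lower in LM2 (CDH11 and PCDH1), against a background of 6.80% over all 12464 protein-coding genes and clusters at that level. A further 8 were over 2-fold higher (CDH12, CDH18, PCDH15, PCDH18, PCDH20, PCDHB8, PCDHB9 and PCDHB16), against a background of 4.67%. As shares of those 26 units these are 7.69% lower, close to the background, and 30.8% higher. CDH12, CDH18, PCDH15, PCDH20, PCDHB8 and PCDHB16 had under 50 counts in MDA-MB-231 and reached the level only through LM2. PCDH1 reached it only through MDA-MB-231. The shares and the medians below thus rest partly on genes that the minimum admitted by their higher column. The same minimum was applied to all genes. Low-count genes pass 2-fold more often. Among the 2952 genes and clusters with a mean of 50 to under 500 counts, a range chosen after seeing the data, 15.3% passed 2-fold downwards and 12.3% upwards. Of the 19 units in that range, 1 was lower and 7 were higher. The median log2 ratio was 0.74 over the 26 units and 0.00 over all genes at the level. It was 0.92 over the 19 low-count units and -0.09 over all genes of that range. The sign was positive in 22 of the 26 units and negative in 4. Among the 25 units that are single genes, the interval lay above 1 in 17, below 1 in 4 and held 1 in 4. Signs and intervals around 1 were not counted over all genes, and 9 of the units are PCDHB paralogs with partly shared sequence. All 10 genes past 2-fold had intervals wholly beyond it. By that rule 617 of the 12464 genes and clusters were lower and 425 higher.

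**Figure D1:**
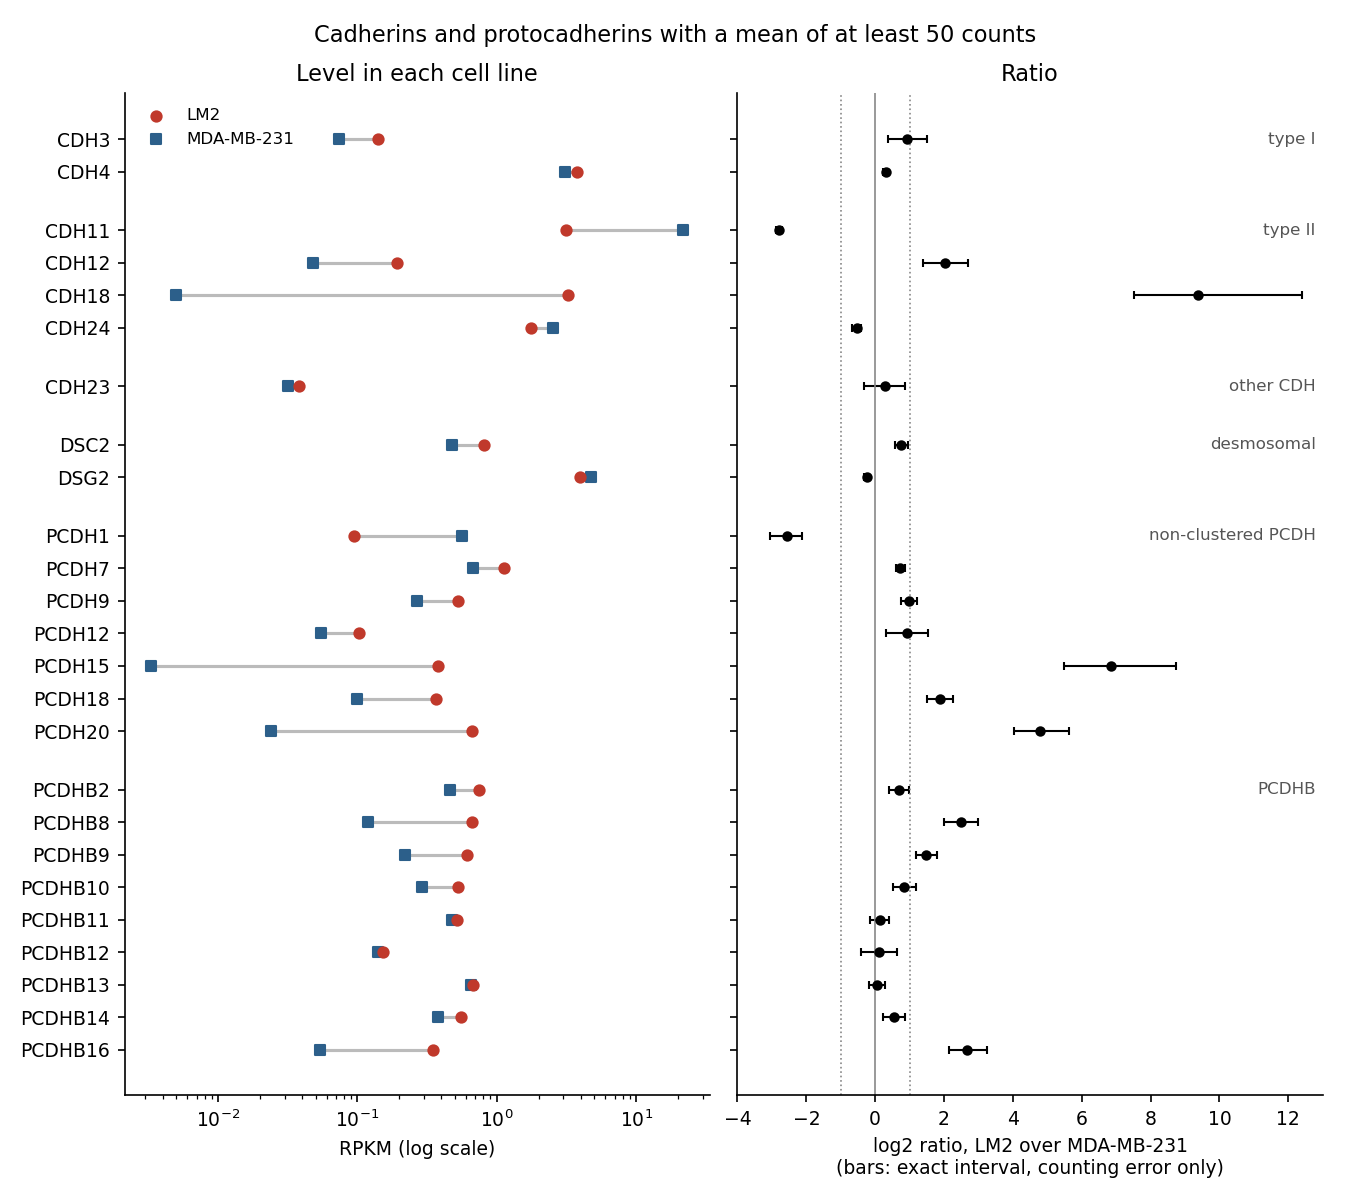
The 25 single genes whose mean reached 50 counts, grouped by subfamily. The left panel plots the RPKM on a log axis (circles for LM2, squares for MDA-MB-231), and the right panel the log2 ratio of LM2 over MDA-MB-231 with its exact 95% interval for counting error, with dotted lines at 2-fold. CDH11 and PCDH1 lie left of the dotted lines, and CDH18, PCDH15 and PCDH20 lie farthest to the right.

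The plot of levels and ratios shows that the widest gaps belong to a few genes. Outside the PCDHA and PCDHG clusters, 4 members had an RPKM over 1 in both cell lines (CDH4, CDH11, CDH24 and DSG2). CDH18 and PCDH7 exceeded 1 only in LM2, which makes 6 members over 1 in either. For PCDH7 this depends on the transcript, since its shorter NM_002589 had an RPKM of 1.99 in LM2 and 1.18 in MDA-MB-231. Of the 34 remaining members outside these 2 clusters, which were under the level, 11 were at 0 in both columns, 10 had at most 9 counts in either, and 13 reached 10 counts in at least 1.

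Among the classical cadherins, CDH11 and CDH18 differed most, in opposite directions. CDH11, a type II cadherin of mesenchymal and bone-forming cells, had 1480 counts in LM2 against 10394 in MDA-MB-231, an RPKM of 3.15 against 21.8. This was 6.93-fold lower in LM2 (6.56 to 7.32), a log2 ratio of -2.79, and 146 of the 12464 genes and clusters at the level had a lower ratio. In bulk RNA, fewer cells that express a gene and less of its RNA per cell cannot be told apart. CDH18, a type II cadherin best known from the nervous system, went the other way. It had 1300 counts in LM2 against 2 in MDA-MB-231, an RPKM of 3.26 against 0.00496, a ratio of 659 (182 to 5444). Only 2 of the genes and clusters at the level had a higher ratio. The 2 counts in MDA-MB-231 leave that interval wide.

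The other type II cadherins differed less. CDH24, which binds beta-catenin as other classical cadherins do, had an RPKM of 1.75 in LM2 against 2.53 in MDA-MB-231, 1.45-fold lower (1.32 to 1.58). CDH12, expressed in brain, had 108 counts in LM2 against 27 in MDA-MB-231, a ratio of 4.05 (2.64 to 6.43), although its RPKM stayed at 0.193 and 0.0475. Under the level, CDH10 had 11 counts in LM2 and 0 in MDA-MB-231, at least 2.54-fold higher by the exact interval and 3.72-fold higher with the 0 set to a floor of 3 counts per column. CDH20 had 7 counts in LM2 and 21 in MDA-MB-231, a ratio of 0.338 (0.121 to 0.825). These last values lie near the limit of detection.

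Along chromosome 5, CDH18, CDH12, CDH10, CDH9 and CDH6 follow each other with few genes between, and all 5 had more counts in LM2. CDH9 (8 and 0 counts) and CDH6 (7 and 0 counts) were chosen after their values were seen. Of the 8 type II cadherins elsewhere in the genome, 4 had fewer counts in LM2, 4 were at 0 in both and 0 had more. Among those with fewer, CDH22 had only 0 against 2 counts, and its interval (0 to 5.39) holds 1. This grouping by chromosome was made after the values were seen. The low counts of CDH10, CDH9 and CDH6 leave the size of their differences uncertain by counting error alone. The 30 nearest protein-coding genes at the level had a median log2 ratio of -0.04 around CDH18 and also around CDH12. Cadherins and protocadherins were left out of these neighbours, and the distance they span was not measured. A shift of the region was not tested.

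Type I cadherins carried little of the difference. CDH4 (R-cadherin) was the most abundant of them, with 3176 counts in LM2 against 2606 in MDA-MB-231, an RPKM of 3.78 against 3.06 and a ratio of 1.23 (1.17 to 1.30). CDH3 (P-cadherin), a marker of basal and myoepithelial breast cells, had 77 counts against 41 in the same order, a ratio of 1.90 (1.29 to 2.85). The epithelial cadherin CDH1 had 0 counts in LM2 and 13 in MDA-MB-231, at least 3.01-fold lower by the exact interval and 4.28-fold lower with LM2 at the floor, and its RPKM in MDA-MB-231 was 0.0207. CDH2 (N-cadherin) had 15 counts in LM2 and 71 in MDA-MB-231, 4.67-fold lower (2.65 to 8.78), with a mean count under the level and an RPKM of 0.0266 against 0.124. CDH15 (M-cadherin), the cadherin of muscle precursors, had 10 counts against 8. Neither of the cadherins at the centre of the textbook E-cadherin to N-cadherin switch was therefore expressed at more than a trace in either cell line.

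Summed over type I and type II, the classical cadherins had an RPKM of 12.4 in LM2 and 27.7 in MDA-MB-231. Type II accounted for 8.42 of this in LM2 and 24.4 in MDA-MB-231, and type I for 3.98 and 3.30. In LM2 the sum was spread over CDH4 (30.5%), CDH18 (26.3%), CDH11 (25.4%) and CDH24 (14.1%). In MDA-MB-231 CDH11 alone held 78.6%, most of the rest was CDH4, CDH24 held 9.12% and CDH18 held 0.0179%. These 4 genes made up 96.3% of the sum in LM2 and 98.7% in MDA-MB-231.

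**Figure D2:**
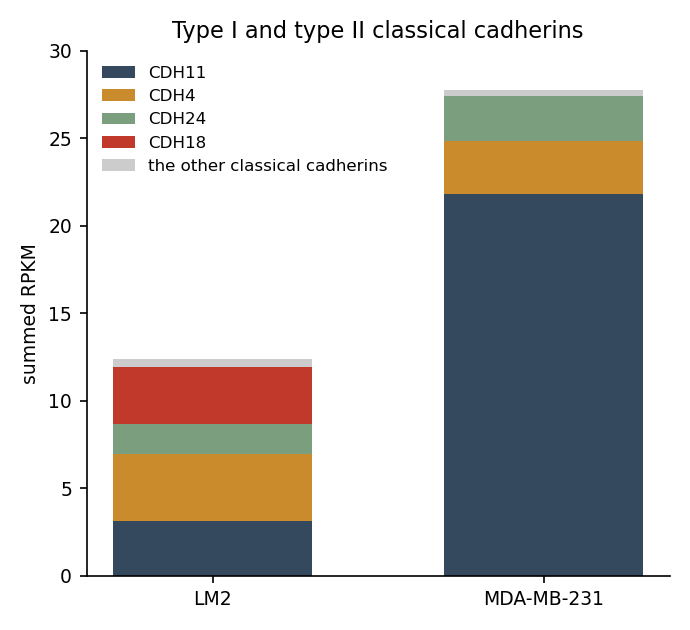
Summed RPKM of the type I and type II classical cadherins in LM2 (left bar) and MDA-MB-231 (right bar), stacked by gene, with 1 column per cell line and no error bar. The LM2 bar reaches 12.4 in 4 portions of similar order, while the MDA-MB-231 bar reaches 27.7 and is mostly CDH11.

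Both desmosomal cadherins at the level, DSG2 and DSC2, differed by less than 2-fold. DSG2, the desmoglein of simple epithelia and one of the most abundant members, had 2898 counts in LM2 against 3476 in MDA-MB-231, an RPKM of 3.97 against 4.71, 1.18-fold lower (1.13 to 1.24). Its widespread partner DSC2 had 548 counts in LM2 against 327 in MDA-MB-231, an RPKM of 0.810 against 0.477 and a ratio of 1.70 (1.48 to 1.95). The desmosomal cadherins of stratified epithelia (DSC1, DSG1, DSG3 and DSG4) were at 0 in both cell lines, and DSC3 had 1 count in LM2 against 6 in MDA-MB-231, a ratio of 0.169 whose interval (0.00367 to 1.39) holds 1. These 5 genes were named after their values were seen. All 7 genes lie in a row on chromosome 18 next to CDH2, and the neighbours of DSG2 and DSC2 had a median log2 ratio of -0.25. Among the remaining cadherins, CDH23, a tip-link protein of inner-ear hair cells, had 55 counts in LM2 against 46 in MDA-MB-231, a ratio of 1.21 (0.804 to 1.83) that cannot be told from 1 at this depth.

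Among the non-clustered protocadherins, 3 of the 7 genes at the level were over 2-fold higher in LM2 and 1 was lower, against 4.67% and 6.80% of all genes at the level and 12.3% and 15.3% of those with a mean under 500 counts. PCDH15, the other tip-link protein of hair cells, had 454 counts in LM2 against 4 in MDA-MB-231, an RPKM of 0.381 against 0.00331 and a ratio of 115 (44.6 to 424). Its 12 listed transcripts had 364 to 454 counts in LM2 and 4 in MDA-MB-231. PCDH20 had 408 counts in LM2 against 15 in MDA-MB-231, an RPKM of 0.662 against 0.0240 and a ratio of 27.6 (16.5 to 49.7). In GENCODE release 29, 95.8% of the exon bases of PCDH20 also belong to a gene model on the same strand, AL592490.1, so reads of the pair cannot be told apart. PCDH18 had 277 counts in LM2 against 76 in MDA-MB-231, a ratio of 3.69 (2.86 to 4.82).

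PCDH1, a protocadherin of airway epithelium among other tissues, was the only non-clustered protocadherin over 2-fold lower in LM2. It had 46 counts in LM2 against 277 in MDA-MB-231, an RPKM of 0.0939 against 0.558, 5.94-fold lower (4.34 to 8.31). PCDH12, a protocadherin of endothelium and placenta that lies just past it on chromosome 5, had 69 counts against 37 in the same order, a ratio of 1.89 (1.25 to 2.90). The direction therefore differed between these near neighbours. PCDH7, the most abundant protocadherin outside the clusters, had 1259 counts in LM2 against 772 in MDA-MB-231, an RPKM of 1.12 against 0.677 and a ratio of 1.65 (1.51 to 1.81). PCDH9 lay just inside the 2-fold limit, with 423 counts in LM2 against 218 in MDA-MB-231 and a ratio of 1.97 (1.67 to 2.33). Under the level, PCDH10 had 41 and 50 counts and PCDH17 had 10 and 4, both with intervals that hold 1. The median log2 ratio of the neighbours, again without members of the family, was 0.25 for PCDH15, 0.20 for PCDH18, 0.14 for PCDH20 and 0.13 for PCDH1. Shifts of these regions were not tested.

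The PCDHB genes were mostly higher in LM2, and unequally so. They have no shared 3-prime exons as the other clusters do, but they are close paralogs, and reads of similar copies may be split between them. Of the 16 genes, 14 had a ratio above 1, PCDHB5 was lower (18 and 26 counts, 0.701, 0.362 to 1.33) and PCDHB1 was at 0 in both. Their counts summed to 2253 in LM2 and 1300 in MDA-MB-231, a ratio of 1.76 (1.64 to 1.88). The 3 genes past 2-fold follow each other in the order of PCDHB genes along the chromosome, as PCDHB8, PCDHB16 and PCDHB9. PCDHB8 had 233 counts in LM2 against 42 in MDA-MB-231, a ratio of 5.62 (4.03 to 8.01). PCDHB16 had 215 against 34, a ratio of 6.41 (4.45 to 9.49). PCDHB9 had 335 against 121, a ratio of 2.81 (2.27 to 3.48).

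Together these 3 adjacent genes had 783 counts in LM2 and 197 in MDA-MB-231, a ratio of 4.03 (3.44 to 4.73), and the other 13 had 1470 and 1103, a ratio of 1.35 (1.25 to 1.46). The split was made after the values were seen. Next along the chromosome, PCDHB10 had a ratio of 1.80 (1.44 to 2.26). PCDHB11 (1.09), PCDHB12 (1.08) and PCDHB13 (1.03) had intervals that hold 1. PCDHB13 was the most abundant PCDHB gene in MDA-MB-231 by count, with 302 counts in LM2 against 297 in MDA-MB-231. PCDHB14 had a ratio of 1.46 (1.17 to 1.83), and PCDHB2, at the other end, 1.61 (1.32 to 1.97). Under the level, PCDHB4 (44 and 10 counts, 4.46, 2.21 to 9.93) and PCDHB6 (35 and 8 counts, 4.43, 2.02 to 11.1) had intervals above 2, PCDHB7 had an interval above 1 (37 and 20 counts, 1.87), and those of PCDHB3 (33 and 19) and PCDHB15 (36 and 32) held 1.

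**Figure D3:**
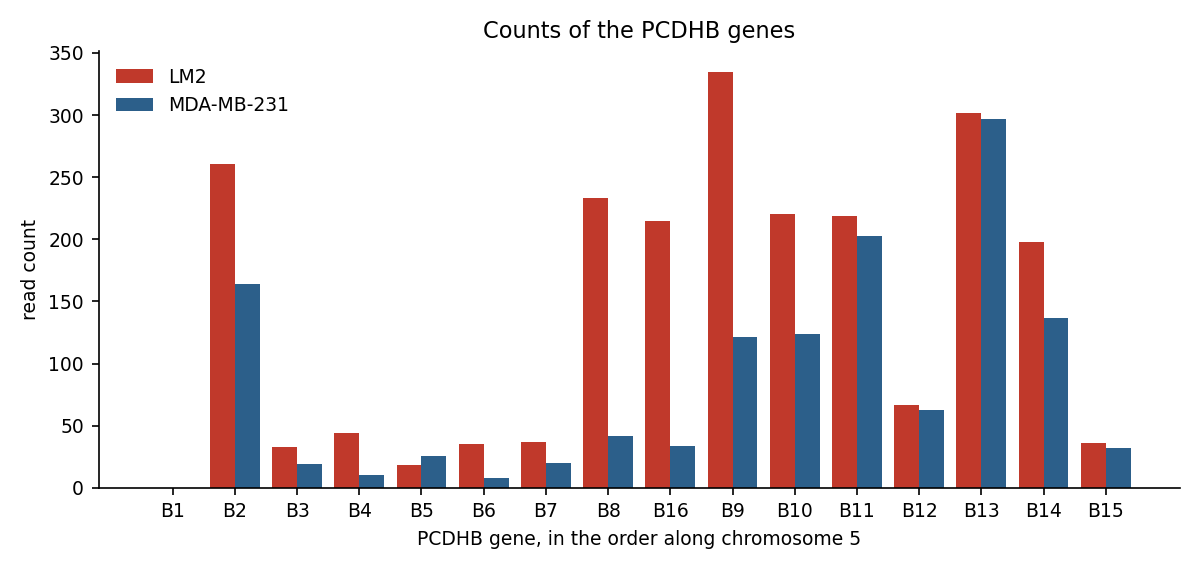
Read counts of the 16 PCDHB genes in LM2 (left bar of each pair) and MDA-MB-231 (right bar), ordered as along chromosome 5, with 1 column per cell line and no error bar. The run PCDHB8, PCDHB16 and PCDHB9 has 215 to 335 counts in LM2 and 34 to 121 in MDA-MB-231, while PCDHB11, PCDHB12 and PCDHB13 have bars of almost equal height.

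The assignment of reads between PCDHB copies is a limit of these values. In 50-base words of their transcripts, a median of 13.7% also occur in another cadherin or protocadherin gene of the family, in or outside the PCDHB cluster. Pseudogenes were not searched. PCDHB8 has the highest share, 45.7%, of which PCDHB13 accounts for 33.0% of its words, while PCDHB10 has 35.4%, PCDHB9 has 20.9% and PCDHB16 has 11.4%. The handling of reads with several placements is not known from the sources used here. Overlap with other gene models is a second limit. On the other strand, models lie opposite 16.3% of the exon bases of PCDHB16 and a similar part of those of PCDHB2. The strand setting of the counting is not given either. On the same strand, the model AC244517.8 covers 8.07% of the exon bases of PCDHB8 and 4.92% of those of PCDHB16. AC244517.6 covers 3.72% of those of PCDHB16 and 7.63% of those of PCDHB9. Reads in these parts cannot be told apart by strand.

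Promoters of clustered protocadherins are known to carry a conserved element with the core CGCT that is bound by CTCF, and the PCDHB promoters in the RefSeq table (GRCh38.p14) were searched for the 9-letter word that most of them share before their start. That word, GGTGGCGCT, lies wholly upstream of the start site in 12 of the 14 PCDHB promoters listed and somewhere in the window of 300 bases in 13. PCDHB1 is the one without it, and PCDHB6 and PCDHB11 are not in the table. Counted on both strands, the word occurs in 176 of all 35116 promoters (0.501%) and in 0 of 13 PCDHA, 0 of 25 PCDHG and 0 of 23 CDH promoters listed. Since the word was picked from the PCDHB promoters themselves, its high share among them follows from that choice. Other forms of the element around the core CGCT were not searched, so the zeros do not show that PCDHA or PCDHG promoters lack it. The 30 bases around it are shown for the PCDHB genes at the level, on the plus strand, first the 3 genes over 2-fold higher in LM2 and then those that were not, with the word in capitals.
PCDHB8 (chr5:141177777-141177806): tgaggacccgtGGTGGCGCTgcaggataag
PCDHB16 (chr5:141182310-141182339): tgagaacgcgtGGTGGCGCTgcaggttaag
PCDHB9 (chr5:141187074-141187103): ggaagccacaaGGTGGCGCTgcagactgaa
PCDHB2 (chr5:141094544-141094573): aagagacgcggGGTGGCGCTgcagccttag
PCDHB10 (chr5:141192299-141192328): ggaggccacacGGTGGCGCTgcaggctaaa
PCDHB12 (chr5:141208643-141208672): tggagacgcgtGGTGGCGCTgcaggataat
PCDHB13 (chr5:141213865-141213894): tgaggacgcgtGGTGGCGCTgcaggataag
PCDHB14 (chr5:141223263-141223292): tggagacacatGGTGGCGCTacaggataag
The same word therefore stands in the promoters of genes with ratios from 1.03 (PCDHB13) to 6.41 (PCDHB16), and a match is a description of the letters and not a site of binding.

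PCDHG transcripts with the shared exons were higher in LM2 by a small and uniform factor, read largely from that shared sequence. The 22 PCDHG genes each join a long first exon of their own to the same 3-prime exons, and 24 transcripts with those exons had 469 to 1217 counts in LM2 (median 579.5) and 341 to 854 in MDA-MB-231 (median 440.5). Their log2 ratios ran from 0.26 to 0.53, with all 24 intervals above 1. The 22 transcripts without the shared exons, which show the first exon alone, had a median of 135 counts in LM2 and 114.5 in MDA-MB-231. They summed to 3521 and 3022 counts, a ratio of 1.18 (1.12 to 1.24). The log2 ratios of the 18 at the level were less uniform and ran from -0.28 to 0.66, so some were lower in LM2. For 15 of the 18 at the level the interval held 1, and for PCDHGB1, PCDHGB2 and PCDHGB7 it lay above 1.

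The shared exons added nearly the same count to each gene, 443 to 453 in LM2 (median 451) and 330 to 335 in MDA-MB-231 (median 333.5). The uniform ratio of the full transcripts thus reads the same exons many times over. By first exon, PCDHGB1 was the most abundant, with 768 counts in LM2 and 522 in MDA-MB-231, a ratio of 1.49 (1.33 to 1.67). PCDHGB7 had 158 and 101 counts, a ratio of 1.59 (1.23 to 2.06). The smallest first-exon counts went both ways, PCDHGA2 with 17 in LM2 and 34 in MDA-MB-231 and PCDHGA3 with 25 and 6.

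**Figure D4:**
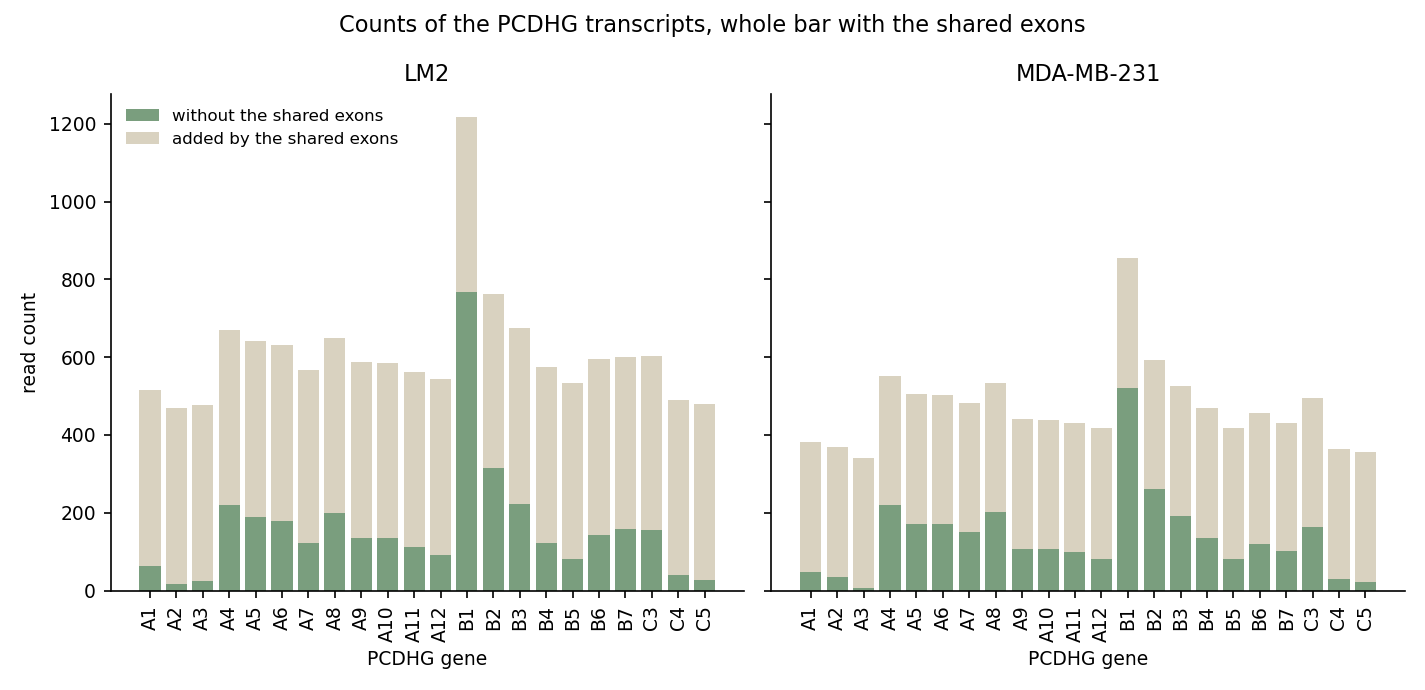
Read counts of the 22 PCDHG genes in LM2 (left panel) and MDA-MB-231 (right panel), with the transcript without shared exons as the lower part of each bar and the count that the shared exons add as the upper part, 1 column per cell line and no error bar. The upper parts are almost equal within a panel, 443 to 453 counts in LM2 and 330 to 335 in MDA-MB-231, and the lower parts set the differences between genes, with PCDHGB1 the tallest in both.

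PCDHA was close to silent in both cell lines. The 18 PCDHA transcripts with the shared exons of that cluster had 12 to 30 counts in LM2 and 17 to 43 in MDA-MB-231, and none reached the level. The 15 transcripts without them summed to 47 counts in LM2 and 98 in MDA-MB-231, a ratio of 0.486 (0.336 to 0.695). By genes named after their values were seen, the largest gaps were in PCDHAC2 (2 and 23 counts), PCDHA7 (0 and 14) and PCDHAC1 (14 and 26). PCDHA13 (18 and 13), PCDHA12 (6 and 2), PCDHA10 (2 and 0) and PCDHA5 (2 and 0) had more counts in LM2. The sums of the 3 neighbouring clusters thus differed in direction. That of the PCDHA first exons was lower in LM2, at trace counts and through few genes, while those of PCDHB and of the PCDHG first exons were higher. In the PCDHG sum PCDHGB1 weighed most, with 768 counts in LM2 and 522 in MDA-MB-231. For 15 of the 18 PCDHG first exons at the level the interval held 1. Across the genome 60 of the 96 members lie on chromosome 5, most of them in these clusters.

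Genes for the proteins that join cadherins to the cell interior had medians below 0, and their counts past 2-fold were near the background. Across 8 lists of cadherin partners and regulators, with 78 genes in all, 54 genes were at the level, of which 5 passed 2-fold downwards in LM2 (9.26%, against 6.80% over all genes at the level) and 2 upwards (3.70%, against 4.67%). These shares are near the background, and nothing particular to the lists is read from their counts. Among the catenins and plakophilins, 1 of 9 genes at the level was lower and 0 were higher, with a median log2 ratio of -0.38. That gene was plakoglobin (JUP), which links desmosomal cadherins to desmoplakin, with 620 counts in LM2 against 1387 in MDA-MB-231, 2.21-fold lower (2.01 to 2.43). The core catenins were abundant in both cell lines. CTNNB1 (beta-catenin) had an RPKM of 76.3 in LM2 against 61.0 in MDA-MB-231, and CTNNA1 (alpha-catenin) had 70.4 against 72.7. Each of them exceeded the RPKM of all classical cadherins summed, in both cell lines.

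In the desmosomal plaque, 1 of 7 genes at the level passed 2-fold, again JUP, and the median log2 ratio was -0.51. JUP and plakophilins stand both in this list and in that of the catenins and plakophilins, so the medians of those lists are not separate observations. Desmoplakin (DSP), the link to keratin, had 6487 counts in LM2 against 11831 in MDA-MB-231, 1.80-fold lower (1.75 to 1.86), and PERP, a membrane protein of desmosomes and the most abundant of this list by mean RPKM, had 10.2 against 7.04. In the same libraries the keratin KRT19 had 2272 counts in LM2 against 25837 in MDA-MB-231, 11.2-fold lower, and its part in these differences was not tested. Among the linkers and nectins, 1 of 9 was lower and 0 higher, with a median of -0.38. This was PLEKHA7, which ties p120 catenin to microtubules at the adherens junction, with 125 counts in LM2 against 2614 in MDA-MB-231, 20.6-fold lower (17.2 to 24.9). Vinculin (VCL), the most abundant of that list, had an RPKM of 53.2 against 42.3. In the list on shedding and turnover, 1 of 4 was lower, the sheddase ADAM10, with 3849 counts in LM2 against 8621 in MDA-MB-231, 2.21-fold lower (2.13 to 2.30).

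The lists of transcriptional regulators are small, and their counts past 2-fold are read against the same background of 6.80% lower and 4.67% higher. Of the repressors of CDH1, 1 of 6 at the level was over 2-fold higher and 0 were lower, with a median log2 ratio of 0.32. It was KLF8, with 225 counts in LM2 against 100 in MDA-MB-231, a ratio of 2.28 (1.79 to 2.91). ZEB1, the most abundant repressor, had an RPKM of 7.33 in LM2 against 5.66 in MDA-MB-231. Of 2 activators of the epithelial program at the level, the epithelial factor ELF3 was lower, with 33 counts against 149, 4.46-fold lower (3.04 to 6.71), and KLF4 was the most abundant, with a ratio of 1.96. Under the level, and named after their values were seen, FOXA1 had 57 counts in LM2 against 10 in MDA-MB-231 (5.78, 2.92 to 12.7) and ESRP1 had 42 against 4 (10.6, 3.86 to 40.8). GRHL2, also named after its values were seen, had 0 against 14 in the same order, at least 3.27-fold lower by the exact interval. The list thus held genes of both directions. None of 11 regulators of clustered protocadherins, a list with CTCF and the cohesin subunits, passed 2-fold. Their median log2 ratio was 0.16, and the cohesin gene RAD21 was the most abundant, with a ratio of 1.13 (1.10 to 1.16). In the wider cadherin superfamily, 1 of 9 genes at the level was lower and 1 higher, with a median of -0.06. CELSR1, a planar polarity receptor, had 1367 counts in LM2 against 393 in MDA-MB-231, a ratio of 3.52 (3.15 to 3.95), and the giant cadherin FAT3 had 617 against 1722, 2.75-fold lower (2.51 to 3.02). FAT1, the most abundant of that list, had an RPKM of 31.1 in LM2 and 32.2 in MDA-MB-231.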

How the data were processed

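RNA was sequenced from both cell lines, and per the submitters' processing notes the authors ran bcl2fastq and TopHat2 (version 2.0.13) with the builds hg19 and GRCh37. How reads were counted, with which strand setting and on which annotation, is not known from the sources used here. The deposited read counts per transcript are whole numbers and were taken as they are. The authors' RPKM values and lengths come in a second table, and each RPKM matches count over length and column total to a relative difference of at most 4.98e-06. At 1 kilobase, 129 counts in LM2 and 131 in MDA-MB-231 make an RPKM of 1. Overlapping transcripts can share reads, so column totals may exceed the reads sequenced.

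The edgeR test foreseen for separate libraries was not possible with a single column per cell line. Count ratios over the ratio of totals were used instead, with exact (Clopper-Pearson) 95% intervals for counting error only. The 2-fold threshold was applied where the mean reached 50 counts, and folds against 0 used a floor of 3 counts per column. Symbols were paired through GENCODE release 29 and the RefSeq tables of GRCh38.p14, for 33714 of 34791 NM_ and 201 protein-coding ENST transcripts, and sequences are those of RefSeq on that build. Exons held by at least 5 genes of a cluster counted as shared. No coordinates of hg19 were converted, and near-identical copies on the sex chromosomes are given no value.

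The members, gene lists and alternatives were chosen with earlier results of these data known. Outside the PCDHA and PCDHG clusters, named are every member with a mean of 50 counts or more and every other member with 10 or more counts in either column. These clusters are given as wholes, by the range and median of their transcripts, with the few PCDHG genes of the highest and lowest first-exon counts or of intervals above 1. Also named are, from each list, those past 2-fold and the most abundant. Other names are marked where they appear. The calculation was tested on simulated counts. Alternatives were TMM and upper-quartile factors (edgeR 4.0.16), size factors (DESeq2 1.42.0), totals without the 12 largest transcripts, other minimums and thresholds, other transcripts per gene, each clustered gene on its own, and pseudocounts of 0.1 and 1 on RPKM. The software was R 4.3.3 and Python 3.11.15 with numpy 2.4.6, scipy 1.17.1, pandas 2.3.3 and matplotlib 3.10.9.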

Additional observations from a re-analysis of the deposited data

How the results depend on the processing

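Over 2-fold differences were counted in 2 members lower and 8 higher in LM2. Both counts were the same under TMM factors, upper-quartile factors, DESeq2 size factors, totals without the 12 largest transcripts, the longest listed transcript, NM_ transcripts only and each clustered gene on its own. Where the minimum mean was 10 counts, 4 were lower and 10 higher (8.84% and 6.39% of all genes), at 100 counts 2 and 7 (6.06% and 3.98%), and with no minimum 8 and 15 (9.68% and 8.16%). With a threshold of 1.5-fold, 2 were lower and 15 higher, against 1885 lower and 1309 higher of all 12464 genes and clusters at the level. No member past 2-fold changed direction, and PCDHB13, with a ratio near 1, changed sign under totals without the 12 largest transcripts. A pseudocount compresses low genes. With log2(RPKM + 0.1) CDH12 had a log2 ratio of 0.99, under 2-fold, which left 2 members lower and 7 higher. With log2(RPKM + 1) 8 of the 25 genes lay on the other side of 2-fold. This left 1 lower (CDH11) and 1 higher (CDH18), against 244 lower and 164 higher of all genes and clusters at the level. The median log2 ratio of the members was then 0.21. Over all alternatives it ran from 0.21 to 0.76. No paired analysis was possible because the table holds 1 column per cell line. With 1 column each, spread between cultures is unknown, and at a few counts per column only large ratios can be told from 1.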

Other observations

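Pseudogenes and antisense genes of the family were also counted in the table and are no members. PCDHB19P had 34 counts in LM2 and 21 in MDA-MB-231, a ratio of 1.64 (0.925 to 2.97), PCDHB18P had 26 and 37, and PCDHGB8P, of the PCDHG cluster, had 56 and 67. The antisense gene DSG2-AS1 had 100 counts in LM2 and 139 in MDA-MB-231, a ratio of 0.729 (0.558 to 0.949). These counts were low in both cell lines.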
